A study of Homo sapiens with 8 samples.

Results

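The 6 genes described here are those of the human mitochondrial genome that encode subunits of complexes III, IV and V of oxidative phosphorylation. They are MT-CYB (complex III), MT-CO1, MT-CO2 and MT-CO3 (complex IV), and MT-ATP6 and MT-ATP8 (complex V). They were chosen by name, and all 6 were found in both deposited count tables among 60664 gene identifiers. The values come from selective ribosome profiling, in which RNA fragments shielded by the ribosome during nuclease digestion (RPFs, ribosome-protected fragments) are sequenced from the whole ribosome pellet and from the ribosomes that come down with a tagged chaperone. The cells were U-2 OS, a human osteosarcoma line. In the TRiC groups the chaperonin subunit CCT4 carried a HaloTag (genotype CCT4-Halo), and in the PFD groups the prefoldin subunit PFD4 carried it (genotype PFDN4-Halo). In the TRiC line the tag had been knocked into a loop of CCT4 and in the PFD line it had been placed at the C terminus of the endogenous protein, by CRISPR editing in both. All 4 groups were otherwise treated alike. Cells received 100 µg ml-1 cycloheximide for 1 min and 2 mM DSP, a crosslinker, for 30 min. RNase I was added to the lysates, and ribosomes were then spun through a sucrose cushion. Ribosome pellets gave both kinds of library, the input from their total RNA and the pulldown through beads that bind the HaloTag, and which inputs and pulldowns shared a pellet is not given in the sources used here. Input and pulldown of each line had 2 biological replicates, which gave 8 libraries. No pulldown from untagged cells was among the libraries analysed here.

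These 6 proteins are made inside the organelle by mitochondrial ribosomes, which cycloheximide does not block, and are inserted into the inner membrane as they are made. TRiC and PFD act in the cytosol, where the remaining subunits of the same complexes are translated from nuclear mRNAs and then imported. Cytochrome b (MT-CYB) carries the haems of complex III that take part in quinone oxidation and reduction. MT-CO1 holds the oxygen-reducing centre of cytochrome c oxidase, MT-CO2 receives electrons from cytochrome c, and MT-CO3 completes the conserved core. MT-ATP6 forms part of the proton path of ATP synthase, and MT-ATP8 is a small membrane subunit beside it.

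On hg38 all 6 genes lie on the forward strand of the mitochondrial chromosome, which is 16569 bases long, and each is a single exon without an intron. MT-CO1 (ENSG00000198804) lies at chrM:5904-7445, MT-CO2 (ENSG00000198712) at chrM:7586-8269, MT-ATP8 (ENSG00000228253) at chrM:8366-8572 and MT-ATP6 (ENSG00000198899) at chrM:8527-9207. MT-CO3 (ENSG00000198938) lies at chrM:9207-9990 and MT-CYB (ENSG00000198727) at chrM:14747-15887. MT-ATP8 and MT-ATP6 share 46 bases in different reading frames, and MT-ATP6 and MT-CO3 share 1 base. The counting mode used by the authors keeps a read only where it overlaps a single gene, so reads that touch a shared stretch are lost to both genes. Of the 178 windows of 30 bases in MT-ATP8, 46 (25.8%) touch the shared stretch. The start of MT-ATP6, the end of MT-ATP8 and the junction of MT-ATP6 with MT-CO3 are shown because they limit what could be counted. Capitals mark the start codon of MT-ATP6, the stop codon of MT-ATP8 and, in the third line, the base that MT-ATP6 and MT-CO3 share.
MT-ATP6 start, chrM:8527-8550: ATGaacgaaaatctgttcgcttca
MT-ATP8 end, chrM:8549-8572: cattcattgcccccacaatccTAG
MT-ATP6 and MT-CO3 junction, chrM:9195-9219: cgacaacacataAtgacccaccaat

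The genes also differ in how they end, which is shown for the complex III gene and for 2 genes of complex IV. MT-CYB and MT-CO3 end in a single T, which the poly(A) tail completes to a stop codon in the mature mRNA, and MT-CO1 ends in AGA. Capitals mark these last bases.
MT-CYB end, chrM:15864-15887: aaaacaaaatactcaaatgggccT
MT-CO3 end, chrM:9967-9990: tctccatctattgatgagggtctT
MT-CO1 end, chrM:7422-7445: gaacccgtatacataaaatctAGA

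The authors kept reads with a unique alignment, and nuclear chromosomes hold copies of mitochondrial DNA. A read that matches both places equally well is then counted nowhere. Of the 30-base windows of MT-CO1, 1075 of 1513 (71.1%) had an exact copy in the nuclear chromosomes of hg38, against 64.7% in MT-ATP6, 51.6% in MT-CO2, 46.6% in MT-ATP8 and 46.1% in MT-CO3. MT-CYB had such copies for 86 of 1112 windows (7.73%). In the 7 mitochondrially encoded complex I genes the share ran from 4.73% in MT-ND3 to 58.0% in MT-ND2. Most of the copied windows of MT-CO1, MT-CO2, MT-CO3 and MT-ATP6 had their copy on chromosome 1. The copied windows are the same for every library, but how many reads each library lost to them was not measured. They bear on comparisons between genes. How far they bear on comparisons of the same gene between libraries was not tested.

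**Figure D1:**
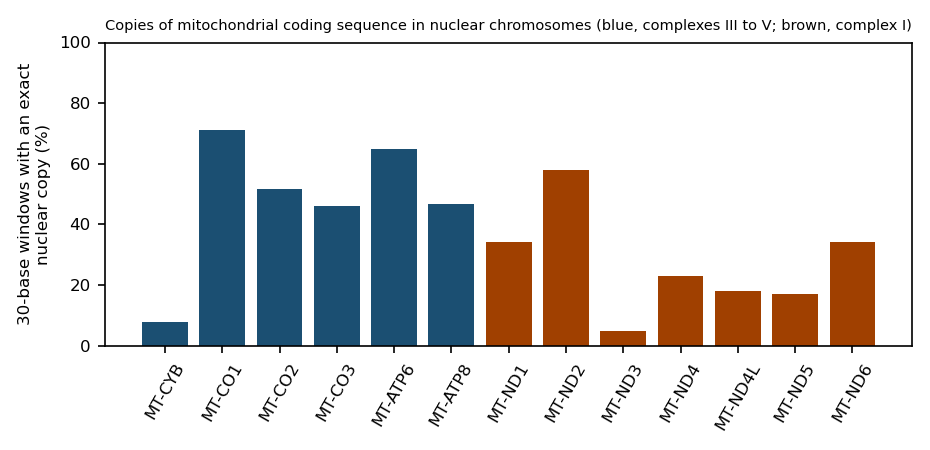
Percentage of the 30-base windows of each mitochondrially encoded mRNA that occur exactly, on either strand, in a nuclear chromosome of hg38. Bars of the 6 genes of complexes III to V are blue and those of the 7 complex I genes brown, and MT-CO1 (71.1%) and MT-CYB (7.73%) are the extremes of the 6.

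The libraries held between 9523128 and 32637658 counts, the fewest in PFD pulldown replicate 1. Replicates differed by more than counting noise in all 4 groups, and the common dispersion, edgeR's measure of variation between replicates, was 0.0153 among TRiC libraries and 0.331 among PFD libraries. Of 6 markers of mesenchymal and bone-forming cells, COL1A1, SPARC, VIM, RUNX2 and CDH2 were detected, with medians between 53.6 and 3910 CPM (counts per 1000000 counts of the library), while COL1A2 was near 0 (1.04 CPM). Markers of leukocytes, epithelia and hepatocytes had medians between 0 and 8.88 CPM. The share of DICER1 differed between the lines and, in the PFD line, between inputs and pulldowns, and the cause was not tested. DICER1 took 3.79 to 10.9% of the counts in the TRiC libraries, at most 0.00375% in PFD inputs, and 2.31 and 0.122% in PFD pulldowns. It is a part of the denominator of the shares of all counts given below.

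The 6 genes took a much smaller share of the counts in the pulldowns than in the inputs of both lines. In TRiC inputs they took 0.405% of the counts in replicate 1 and 0.464% in replicate 2, and in TRiC pulldowns 0.0349 and 0.0474%. PFD inputs had shares of 0.324 and 0.320%, and PFD pulldowns had 0.0710 and 0.0412%. Inputs and pulldowns did not overlap in either line. The means were 0.434% ± 0.0419 (SD, n = 2) and 0.0411% ± 0.00879 (SD, n = 2) for TRiC input and pulldown, and 0.322% ± 0.00238 (SD, n = 2) and 0.0561% ± 0.0211 (SD, n = 2) for PFD input and pulldown. By replicate pair, meaning the input and pulldown with the same replicate number in their titles, the input share was 11.6 and 9.80 times the pulldown share in the TRiC line and 4.56 and 7.77 times in the PFD line. The exact (Clopper-Pearson) 95% intervals were narrow, for example 0.0343 to 0.0356% in TRiC pulldown replicate 1, and cover counting error only. In TRiC inputs, TRiC pulldowns and PFD pulldowns the intervals of the 2 replicates did not overlap, so the spread between replicates is the larger error there. In PFD inputs they overlapped, with 0.321 to 0.326% in replicate 1 and 0.317 to 0.324% in replicate 2. A share is relative: fewer fragments of these genes and more fragments of other RNAs in a pulldown cannot be told apart.

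**Figure D2:**
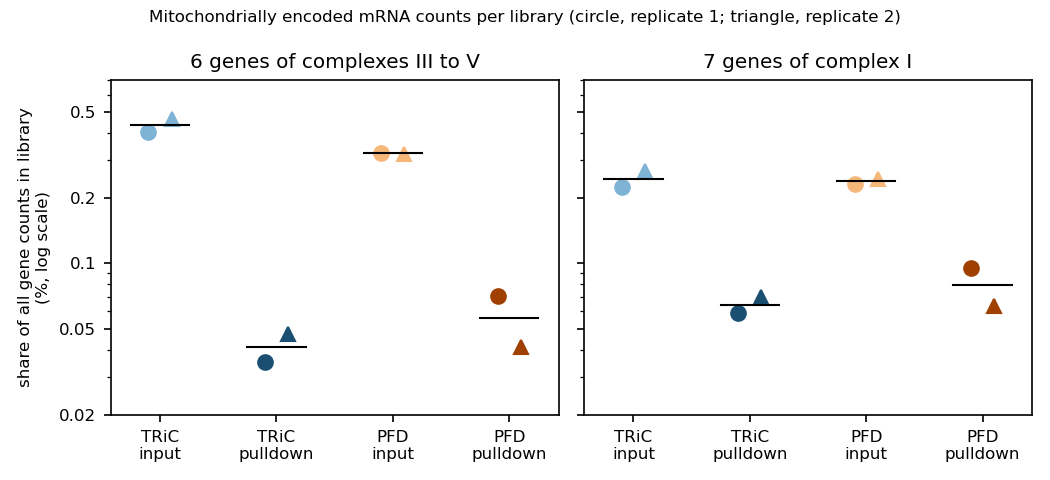
Share of all gene counts, in percent on a log scale, that came from the 6 genes of complexes III to V (left) and from the 7 mitochondrially encoded complex I genes (right) in each of the 8 libraries. Circles are replicate 1, triangles replicate 2 and lines the mean of 2; the 6 genes sit at 0.320 to 0.464% in the inputs and at 0.0349 to 0.0710% in the pulldowns.

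The comparison of TRiC pulldown with TRiC input asks which transcripts were found more or less often on the ribosomes recovered with the chaperonin. All 6 genes fell in the TRiC pulldown, by 7.73-fold (MT-ATP6) to 12.5-fold (MT-CO1), at an adjusted p under 0.05 by edgeR's quasi-likelihood test. Over all 17934 genes tested, 10.6% were called lower. The median log2 fold change was -3.50 over the 6 genes and -0.00324 over all genes.

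MT-CYB, the cytochrome b gene, was counted 33520 and 38893 times in TRiC input replicates 1 and 2, against 3434 and 3667 times in the pulldown replicates. Both pulldowns lay far below both inputs although the libraries were of similar size. After TMM normalization (trimmed mean of M values, which scales libraries to one another) the mean of the TRiC inputs was 1247 ± 53.2 CPM (SD, n = 2), and that of the pulldowns was 124 ± 30.1 CPM (SD, n = 2). The log2 fold change was -3.33 (SE 0.11, 95% interval -3.57 to -3.09, edgeR adjusted p = 9.12e-13), with -3.55 and -3.14 in the replicate pairs.

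Among the cytochrome c oxidase genes, MT-CO1 was counted 30680 and 36292 times in TRiC inputs, against 2624 and 2673 times in TRiC pulldowns. For MT-CO2 the inputs held 13301 and 15432 counts, and the pulldowns held 1140 and 1174. For MT-CO3 they held 30097 and 37445, against 3068 and 3082. For none of the 3 genes did a pulldown library come near an input library. The log2 fold changes were -3.64 for MT-CO1 (SE 0.11, adjusted p = 2.03e-13), -3.62 for MT-CO2 (SE 0.11, adjusted p = 2.33e-13) and -3.44 for MT-CO3 (SE 0.11, adjusted p = 2.33e-13), all by edgeR. The 95% intervals of the 3 genes overlapped, from -3.87 at the lowest to -3.21 at the highest. In replicate pair 1 the log2 ratios were -3.81, -3.81 and -3.56, and in pair 2 they were -3.50, -3.45 and -3.34.

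The ATP synthase genes had fewer counts. TRiC inputs held 5785 and 7810 counts of MT-ATP6, and TRiC pulldowns 800 and 925. Of MT-ATP8, the shortest of the 6, inputs held 3127 and 4345 counts, and pulldowns 333 and 295. Again inputs and pulldowns did not overlap. MT-ATP6 had a log2 fold change of -2.95 (SE 0.15, 95% interval -3.26 to -2.64, edgeR adjusted p = 1.77e-10), the smallest fall of the 6. MT-ATP8, whose reading frame overlaps that of MT-ATP6, had -3.57 (SE 0.13, 95% interval -3.84 to -3.30, edgeR adjusted p = 1.89e-12). The intervals did not overlap, by a small margin, and the difference between these genes was not tested. By replicate pair the log2 ratios were -3.12 and -2.81 for MT-ATP6 and -3.50 and -3.61 for MT-ATP8.

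**Figure D3:**
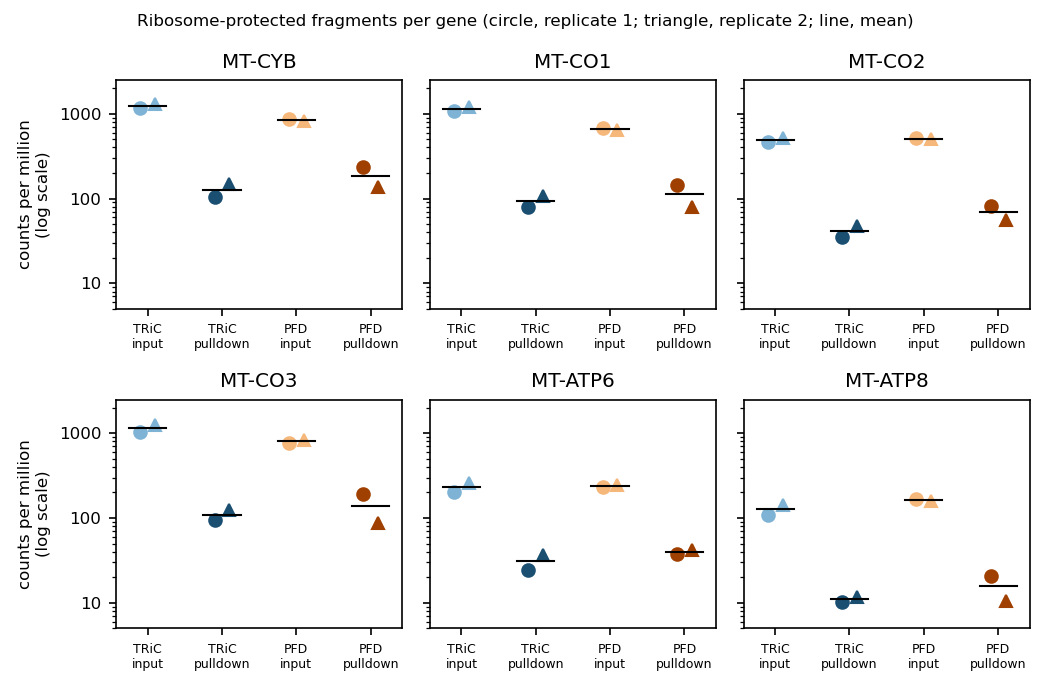
CPM of library total (log scale) of each of the 6 genes in each of the 8 libraries; circles are replicate 1, triangles replicate 2 and lines the mean of 2. In all 6 panels both pulldown libraries of a line lie below both of its input libraries.

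In rank, the 6 genes stood close to the bottom of the TRiC comparison. Among the 11778 genes with a mean of at least 100 counts, MT-CO1 was 3rd from the lowest log2 fold change, MT-CO2 4th, MT-ATP8 5th, MT-CO3 7th, MT-CYB 8th and MT-ATP6 11th.

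The same comparison in the PFD line asks this of ribosomes recovered with prefoldin. All 6 genes fell there too, by 4.43-fold (MT-CYB) to 10.4-fold (MT-ATP8), with edgeR adjusted p between 0.00248 and 0.0382. Over all 14111 genes tested, 0.191% (27 genes) were called lower, and the 6 genes make up 6 of these 27. By log2 fold change alone, among the 10140 genes with a mean of at least 100 counts, MT-ATP8 was 18th from the lowest, MT-CO2 24th, MT-ATP6 31st, MT-CO1 32nd, MT-CO3 34th and MT-CYB 48th. Their median log2 fold change was -2.53, and that of all genes was -0.000478.

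PFD inputs held 16437 and 8494 counts of MT-CYB, and PFD pulldowns held 2222 and 3954. Since the libraries differ in size, CPM of library total serve better: 233 and 138 CPM for the pulldowns, against 859 and 828 CPM for the inputs. MT-CYB had a log2 fold change of -2.15 (SE 0.23, 95% interval -2.68 to -1.61, edgeR adjusted p = 0.0149), the smallest fall of the 6 in this line. The log2 ratio was -1.83 in replicate pair 1 and -2.56 in pair 2.

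Of MT-CO1, PFD inputs held 13089 and 6590 counts, and PFD pulldowns 1389 and 2252. Of MT-CO2, inputs held 9927 and 5098, and pulldowns 781 and 1614. Of MT-CO3, inputs held 14803 and 8509, and pulldowns 1813 and 2467. In CPM, pulldown replicate 1 was above pulldown replicate 2 for all 3 genes and below both inputs. The log2 fold changes were -2.53 for MT-CO1 (SE 0.27, adjusted p = 0.0148), -2.85 for MT-CO2 (SE 0.19, adjusted p = 0.00336) and -2.50 for MT-CO3 (SE 0.33, adjusted p = 0.0382), all by edgeR. MT-CO3 varied most between pairs, with log2 ratios of -1.97 and -3.24. MT-CO1 had -2.18 and -3.01, and MT-CO2 had -2.61 and -3.12.

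MT-ATP6 was counted 4396 and 2508 times in PFD inputs, against 360 and 1193 times in PFD pulldowns. MT-ATP8 was counted 3240 and 1632 times, against 198 and 303 times. In CPM every pulldown library was below both inputs for either gene. MT-ATP6 was the steadiest of the 6 across the replicate pairs, with log2 ratios of -2.55 and -2.53. Its log2 fold change was -2.54 (SE 0.16, 95% interval -2.91 to -2.17, edgeR adjusted p = 0.00248). MT-ATP8 had the furthest fall of the 6 in this line, -3.38 (SE 0.33, 95% interval -4.16 to -2.60, edgeR adjusted p = 0.0119), and ratios of -2.98 and -3.89 in the pairs.

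The log2 fold changes of all 6 genes were further from 0 in the TRiC than in the PFD line, and the difference itself was tested as an interaction over all 8 libraries. None of the 6 was called (edgeR adjusted p from 0.201 to 0.936), where 0.0371% of the 18855 genes tested were called in either direction. The difference, TRiC minus PFD on the log2 scale, was -1.15 for MT-CYB (95% interval -1.89 to -0.42), -1.08 for MT-CO1 (-1.88 to -0.29), -0.75 for MT-CO2 (-1.34 to -0.16) and -0.90 for MT-CO3 (-1.87 to 0.06). It was -0.40 for MT-ATP6 (-1.04 to 0.25) and -0.15 for MT-ATP8 (-1.02 to 0.72). Before adjustment, MT-CYB, MT-CO1 and MT-CO2 were under 0.05 in this edgeR test, as were 2791 genes in all. The call depended on the PFD pulldowns: 4 of the 6 genes passed without PFD pulldown replicate 2, where 18.4% of all genes tested were called in either direction, and 1 passed without PFD pulldown replicate 1, where 5.62% were. With no filter on low counts 4 passed, and 1.36% of all genes did.

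**Figure D4:**
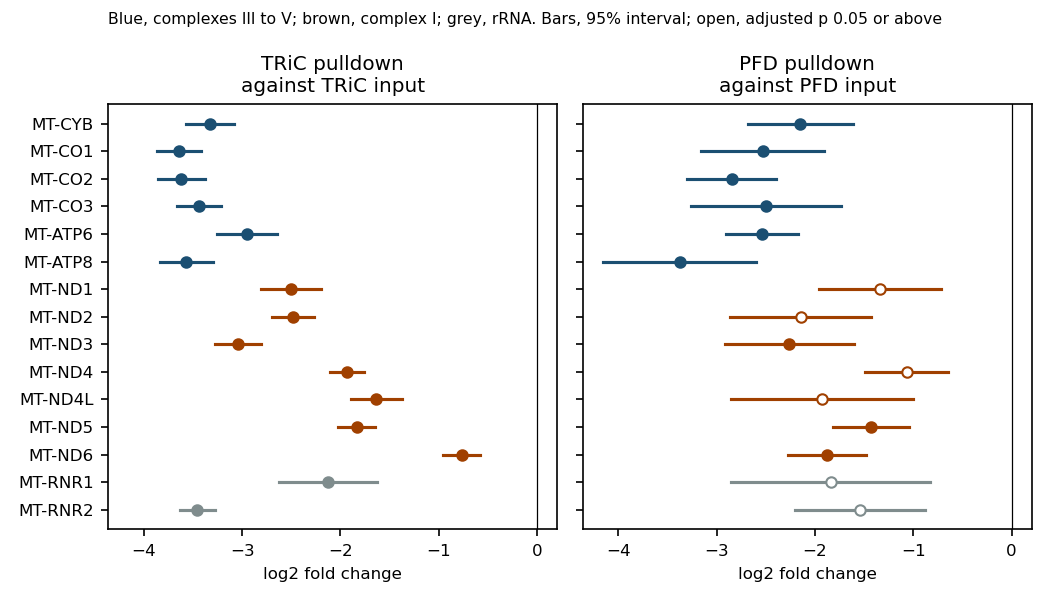
Log2 fold changes of pulldown over input with 95% intervals, from edgeR, for the 13 mitochondrially encoded mRNAs and the 2 mitochondrial rRNAs in the TRiC line (left) and the PFD line (right). Filled points have an adjusted p under 0.05; the 6 genes of complexes III to V (blue) lie between -3.64 and -2.95 on the left and between -3.38 and -2.15 on the right.

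The mitochondrially encoded complex I genes, which are transcribed from the same genome and translated by the same ribosomes, also fell in the TRiC pulldown, 7 of 7, where 10.6% of all genes were called lower. Their log2 fold changes ran from -3.04 (MT-ND3) to -0.77 (MT-ND6), with a median of -1.93. MT-ND6, alone of the 7, lies on the reverse strand. The strand setting of the counting is not given in the sources used here, so the values of MT-ND6 are uncertain. In the PFD pulldown 3 of the 7 were called lower, against 0.191% of all genes, and the values of the 7 ran from -2.26 to -1.07 with a median of -1.88. In the TRiC line 5 of the 6 genes of complexes III to V had a lower log2 fold change than any complex I gene, and the exception was MT-ATP6 (-2.95) beside MT-ND3 (-3.04). The mitochondrial rRNAs MT-RNR2 and MT-RNR1 had -3.45 and -2.13 in the TRiC line, both called, and -1.54 and -1.84 in the PFD line, neither called. rRNA reads had been removed by the authors before alignment to the genome, so these 2 values rest on what that step left.

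The 6 genes accordingly made up less of the mitochondrially encoded mRNA counts in the pulldowns. Of the counts of the 13 mRNAs they took 64.3 and 63.6% in TRiC inputs and 37.3 and 40.5% in TRiC pulldowns. The shares were 58.2 and 56.6% for PFD inputs against 42.7 and 39.4% for PFD pulldowns. Each of the 4 pulldown libraries lay below each of the 4 input libraries. As a log2 ratio of the 6 genes to the complex I genes, the pulldown was 1.48 below the input in the TRiC line and 0.95 below it in the PFD line. No call was made from this ratio, since an exact permutation test within lines (36 arrangements) cannot go below p = 0.0556 in this design. MT-CO1 went from 16.7% ± 0.324 (SD, n = 2) to 8.87% ± 0.407 (SD, n = 2) of the mitochondrially encoded mRNA counts in the TRiC line. In this line MT-ATP6 differed least in relative terms, from 3.37% ± 0.249 (SD, n = 2) to 2.89% ± 0.391 (SD, n = 2), which is about the spread between replicates.

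Levels between genes were compared per length, as RPKM (CPM per kilobase, over the gene span for mitochondrial genes and over the merged coding sequence of all annotated transcripts for nuclear ones). In TRiC inputs the RPKM was highest for MT-CO3 (1457 ± 175, SD, n = 2), followed by MT-CYB (1074 ± 76.0) and then MT-CO1 (735 ± 62.0), MT-CO2 (711 ± 50.3) and MT-ATP8 (610 ± 120). MT-ATP6 was lowest (337 ± 59.7). The neighbours MT-CO1 and MT-CO2, and MT-CO2 and MT-ATP8, did not differ beyond their spread. In PFD inputs the order was MT-CO3 (1023 ± 50.5), MT-ATP8 (794 ± 34.9), MT-CO2 (743 ± 22.5), MT-CYB (740 ± 19.2), MT-CO1 (430 ± 19.1) and MT-ATP6 (348 ± 15.3), and MT-CO2 and MT-CYB did not differ beyond their spread. On the RPKM scale MT-CO3 was the densest and MT-ATP6 the sparsest gene in both inputs.

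The order was different on a scale that leaves out both the windows copied in nuclear chromosomes and those that touch another gene, and how much each exclusion contributed was not separated. When each count was divided by the number of 30-base windows with no exact nuclear copy and no base shared with another gene, as CPM per 1000 such windows, MT-CO3 (2807 ± 337) and MT-CO1 (2588 ± 218) stood together at the top in TRiC inputs. MT-ATP8 (1639 ± 323) and MT-CO2 (1534 ± 109) came next, followed by MT-CYB (1195 ± 84.6) and MT-ATP6 (1007 ± 178). The values of MT-CO3 and MT-CO1 overlapped between replicates, as did those of MT-ATP8 and MT-CO2. MT-CYB, which has the smallest share of copied windows among the 6, stood above MT-CO1, MT-CO2 and MT-ATP8 on the RPKM scale and below all 3 on this one. In PFD inputs both ends of the order changed on this scale. MT-ATP8 (2133 ± 93.8) stood above MT-CO3 (1970 ± 97.2), and MT-CYB (822 ± 21.3) was lowest, below MT-ATP6 (1040 ± 45.8), with MT-CO2 (1603 ± 48.6) and MT-CO1 (1515 ± 67.1) between them.

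The annotated nuclear copies themselves held few counts. There were 187 annotated copies of the 6 genes, 115 of them with at least 1 count, and together they had 10538 counts over the 8 libraries. Summed over the 8 libraries, they came to 14.7% of the counts of the gene they copy for MT-ATP6 and 5.03% for MT-CYB. For the other 4 genes it was less than 1%. Nearly all of the first were on MTATP6P1 (3352 counts, chr1:633696-634376) and nearly all of the second on MTCYBP18 (5262 counts, chr5:134923303-134924049). The shares differed between libraries. In PFD inputs the copies of MT-CYB held 2013 and 646 counts, beside 16437 and 8494 of the gene. Those of MT-ATP6 held 545 and 191, beside 4396 and 2508, so the shares of these genes were about alike there. In TRiC pulldown replicate 1 the copies of MT-CO3 held 123 counts beside 3068, which is above 1%. MTATP6P1 was counted 1075 and 1043 times in TRiC inputs, against 144 and 163 times in TRiC pulldowns, and its log2 fold change was -2.78 (SE 0.17, edgeR adjusted p = 5.10e-09), next to -2.95 for MT-ATP6. MTCYBP18 fell in the TRiC pulldown as well (-1.96, SE 0.18, edgeR adjusted p = 1.41e-06). In the PFD line neither passed, with -1.94 (adjusted p = 0.568) for MTATP6P1 and -2.54 (adjusted p = 0.442) for MTCYBP18. Where a gene and its copy are alike, reads can be split between them, so part of the counts of either may belong to the other. Of the windows of MT-ATP6, 62.1% had an exact copy on chromosome 1. Of those of MT-CYB, 7.73% had one on any nuclear chromosome, and the likeness of MTCYBP18 to MT-CYB was not measured. The most counted copies of the other 4 genes were MTCO3P13 with 226 counts over all libraries, MTCO1P12 with 169, MTCO2P22 with 63 and MTATP8P1 with 53.

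Each complex also has nuclear-encoded subunits, listed here for complexes III, IV and V (41 genes). In the TRiC pulldown 20 of the 39 that were tested fell and 0 rose, with a median log2 fold change of -0.27. Of all genes, 10.6% were called lower and 8.64% higher. By complex, 4 of 9 subunits of complex III fell, 9 of 13 of complex IV and 7 of 17 of complex V. The size was small beside that of the mitochondrial genes: among nuclear subunits with a mean of at least 100 counts, the lowest value of each complex was that of COX6B1 (-0.70, adjusted p = 1.50e-05), a cytochrome c oxidase subunit on the side facing the intermembrane space, ATP5MC2 (-0.52, adjusted p = 7.91e-05), which encodes the c subunit of the ATP synthase ring, and CYC1 (-0.46, adjusted p = 0.000484), cytochrome c1 of complex III, all by edgeR. The highest value of each, none called, was -0.06 for COX6A1, -0.08 for ATP5MF and -0.09 for UQCRB. Without TRiC input replicate 2, the calls in complex III were 2 and those in complex V were 3, with 4.97% of all genes called lower. None of the 39 passed against a 1.5-fold change, where 0.357% of all genes were called lower. None passed in a fit of all 8 libraries (common dispersion 0.223, against 0.0153 for the TRiC libraries alone), where 0.0796% of all genes were. The 6 mitochondrial genes passed in both.

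In the PFD pulldown 0 of 37 tested nuclear subunits were called in edgeR, with a median log2 fold change of -0.05. Over all genes 0.241% were called in either direction, and 978 had an unadjusted p under 0.05 in this comparison. Among subunits with a mean of at least 100 counts, the lowest value for each complex was -1.20 for UQCRB, -0.71 for COX7C and -2.82 for ATP5ME, and the highest was 0.15 for UQCRC1, 0.44 for COX7A2 and 1.09 for ATP5MF. For ATP5ME, 61.3% of the exon bases lie under an exon on the opposite strand, and the strand setting of the counting is not given in the sources used here, so its value is uncertain. With DESeq2, 2 nuclear complex III subunits were called lower and 1 each of complexes IV and V higher, where 3.9% of all genes were called in either direction. Without PFD pulldown replicate 2, edgeR called 3 subunits of complex III, 1 of complex IV and 3 of complex V lower, and 1 each of complexes IV and V higher. In all these were 7 lower and 2 higher of 37 tested, where 8.76% of all genes were called lower and 7% higher. Without PFD pulldown replicate 1 it called 1 each of complexes III and V lower and 1 of complex V higher (2.34% of all genes in either direction), and without PFD input replicate 2 it called 1 of complex V lower (0.415%). With the replicate block (0.95%), and with no filter on low counts (0.623%), it called 1 each of complexes III and V lower.

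Factors needed to express or assemble complexes III to V are encoded in the nucleus too, and 28 were listed. In the TRiC pulldown 8 of 28 fell and 0 rose, with a median of -0.29, where 10.6% of all genes were called lower, the furthest with a mean of at least 100 counts being COX14 (-0.74, edgeR adjusted p = 0.00474), which acts in the synthesis of MT-CO1. The highest was COX19 (0.14, not called). Without TRiC input replicate 1 or replicate 2 the calls were 2, with 3.76 and 4.97% of all genes called lower, and against a 1.5-fold change or in a fit of all 8 libraries they were 0. Over all genes in the TRiC line, 0.357% were called lower against a 1.5-fold change and 0.0796% in a fit of all 8 libraries. In the PFD pulldown 0 of 27 factors were called. Without PFD pulldown replicate 2, 5 of 28 were called lower, where 8.76% of all genes were. The count was 1 without PFD pulldown replicate 1, with the replicate block or with no filter (1.66, 0.638 and 0.381% of all genes lower), and 2 with DESeq2 (2.09%). Among those with a mean of at least 100 counts, SCO2, a copper chaperone for MT-CO2, was lowest with -3.18 (edgeR adjusted p = 0.366) and 62.1% of its exon bases under an exon on the opposite strand, and SURF1 was highest with 0.41 (adjusted p = 0.942).

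Set side by side as RPKM, the mitochondrial subunits of complexes IV and V had the higher median density in the inputs and the lower one in the pulldowns. Whether a ratio lies above or below 1 depends on the lengths used, and the same lengths were used in every library. Cycloheximide does not block mitochondrial ribosomes, and how far this bears on the ratios was not tested. The 15 nuclear complex IV genes include some near 0, at most 2.39 CPM after TMM normalization in any library. These lower the nuclear median, and how far the complex IV ratios rest on them was not tested. The median RPF density (RPKM) of the 3 mitochondrial complex IV genes was 1.48 and 1.57 times that of the 15 nuclear ones in TRiC inputs, and 0.129 and 0.191 times in TRiC pulldowns. In the PFD line the inputs had ratios of 1.93 and 1.74, and the pulldowns 0.365 and 0.254. For complex V the ratios were 1.75 and 2.04 for TRiC inputs against 0.177 and 0.237 for TRiC pulldowns, and 2.64 and 2.68 for PFD inputs against 0.350 and 0.296 for PFD pulldowns. For complex III, whose only mitochondrial gene is MT-CYB, the ratios were 8.60 and 8.35 in TRiC inputs and 0.928 and 1.30 in pulldowns. In the PFD line they were 7.58 and 6.78 in inputs and 2.86 and 1.38 in pulldowns. On the scale of windows without nuclear copies or shared bases, applied to the mitochondrial genes alone, the ratios of complex IV were 3.76 to 5.54 in the inputs and 0.453 to 1.01 in the pulldowns. Those of complex V were 4.88 to 7.46 and 0.498 to 0.978. PFD pulldown replicate 1 was the library that came to about 1 in both (1.01 and 0.978), so a clearly lower density in that library depends on the scale, and this scale was chosen for these ratios after seeing the data. On either scale all pulldown ratios were below all input ratios of the same complex.

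**Figure D5:**
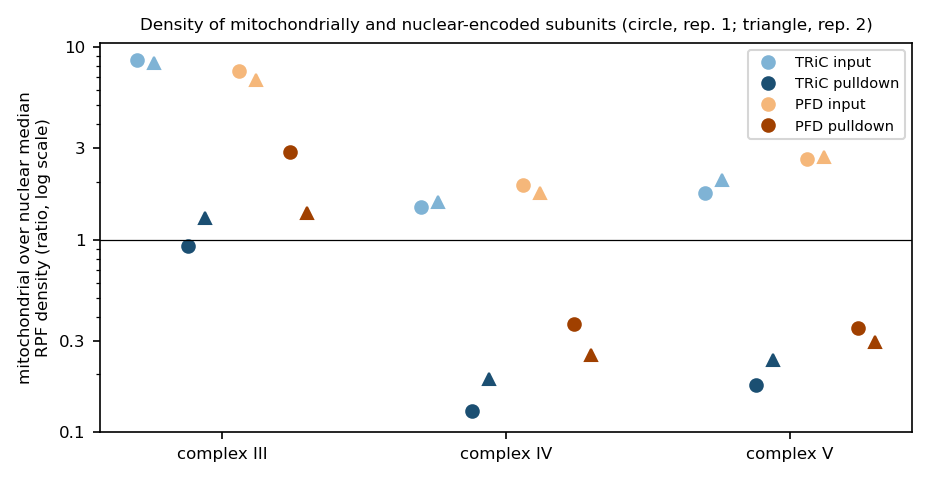
Ratio, on a log scale, of the median RPKM of mitochondrially encoded subunits to that of nuclear-encoded subunits of the same complex, in each of the 8 libraries (circles, replicate 1; triangles, replicate 2). The line marks a ratio of 1; complex IV and V ratios lie at 1.48 to 2.68 in the inputs and at 0.129 to 0.365 in the pulldowns.

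TRiC and PFD inputs were compared to see whether the 6 genes started from the same level in the lines. In this comparison 22.6% of the 16341 genes tested were called higher in the TRiC inputs and 17.7% lower. MT-CO1 (0.78, SE 0.07, adjusted p = 0.000995), MT-CYB (0.54, SE 0.06, adjusted p = 0.00184) and MT-CO3 (0.52, SE 0.08, adjusted p = 0.00508) were higher in TRiC inputs by edgeR on the log2 scale, 3 of the 6. The median over all genes in this comparison was 0.11, and -0.03 after cyclic loess normalization, under which these 3 genes stood at 0.93, 0.70 and 0.67. MT-CO2 (-0.06), MT-ATP6 (-0.04) and MT-ATP8 (-0.38, adjusted p = 0.0686) were not called, and MT-CO2 and MT-ATP6 turned positive under cyclic loess. In a fit of all 8 libraries none of the 6 was called, where 10.5% of all genes were called higher and 9.93% lower. Against a 1.5-fold change only MT-CO1 was called, where 12.5% of all genes were called higher and 7.24% lower. The line and the library batch cannot be told apart here.

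Over the 8 libraries the 6 genes followed one another closely. Pearson's r between log2 CPM of pairs of the 6 ran from 0.966 to 0.997 over the 15 pairs. Of 11261 genes with at least 100 counts on average, the 5 whose log2 CPM was most like the mean of the 6 were MT-ND3 (r = 0.998), MT-ND5 (r = 0.997), MT-ND4 (r = 0.984), the nuclear copy MTATP6P1 (r = 0.976) and MT-ND1 (r = 0.973). These are descriptions over 8 libraries that share their lines and fall into inputs and pulldowns, sets that lie apart for all of these genes. Likeness in r is not likeness in size: MT-ND5 differed between pulldown and input by -1.83 in the TRiC line, and MT-CO1 by -3.64.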

How the data were processed

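The deposited values are raw counts per gene, without normalization, in 1 table for each line. For these, the authors used UMI-tools against PCR duplicates in the trimmed reads, discarded those matching non-coding RNA with Bowtie2 2.4.2, and aligned the rest to hg38 with STAR 2.7.10a (unique alignments, gene counts). The annotation release and strand setting are not given in the sources used here. Of 60664 identifiers, 60463 were in GENCODE release 44, which gave names and positions. Groups came from the sample titles. Pulldown and input were compared within each line, and the inputs between lines, with edgeR 4.0.16 in R 4.3.3 (TMM, filterByExpr, quasi-likelihood test without a replicate block, p adjusted after Benjamini-Hochberg over all genes tested, threshold 0.05); the interaction used all 8 libraries. The standard error is the log2 fold change over the root of the F statistic. The tests were also run on simulated counts, with outcomes not given here. These were drawn with the same dispersion trend for all libraries of a comparison, so unlike dispersions of the lines were not reproduced. The alternatives were library totals, DESeq2 1.42.0, cyclic loess with limma 3.58.1, no filter, 10 counts or more in every library, a glmTreat test against 1.5-fold, a replicate block, all 8 libraries in one fit, other denominators of the shares, and leaving out each library. The 6 genes are named in full; of nuclear genes, each list's highest and lowest value with a mean of at least 100 counts, the most counted copy of each gene and the 5 genes most alike. DICER1 and the markers fall outside this rule. Members and lists were chosen with earlier results of these data known.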

Additional observations from a re-analysis of the deposited data

How the results depend on the processing

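In the TRiC line 72 of 72 alternative values of the 6 genes kept their direction and their call (log2 fold changes from -3.86 to -2.68), and in the PFD line 71 of 72 did (-3.94 to -1.81). The exception was MT-CO3 in the PFD line, with an adjusted p of 0.0629 against a 1.5-fold change in edgeR's glmTreat. In both lines the lowest and the highest of these log2 fold changes came from leaving out a library. With the replicate number as a block, 6 of the 6 genes were called in each pulldown. Of all genes, 14.8% were called lower with the block in the TRiC line and 0.638% in the PFD line. The interaction with the block called 0 of the 6 and 0 of all genes. Deviations of same-numbered libraries had a correlation over genes of 0.202 (TRiC line) and -0.0216 (PFD line). The labels do not say whether same-numbered libraries came from the same pellet. With 2 pairs a line this leaves the pairing unsettled; the block changed no call of the 6 genes.

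The comparison of the inputs was less stable, with 3 of the 6 genes called, but 1 with glmTreat and 0 with all 8 libraries in one fit. The share of all genes called higher fell as well, from 22.6% to 12.5% with glmTreat and 10.5% with all 8 libraries. The sign turned for MT-CO2 under cyclic loess (0.084) and, over a range of -0.090 to 0.0069 when each library was left out, without TRiC input replicate 1 (0.0069) or PFD input replicate 1 (0.0022), and for MT-ATP6 under cyclic loess (0.072) and, over a range of -0.19 to 0.12, without TRiC input replicate 1 (0.12) or PFD input replicate 2 (0.014). MT-ATP8 was called lower in TRiC inputs in 6 of 11 alternatives. Of all genes, 17.7% were called lower in the main comparison. In the alternatives that kept every library the share ran from 7.24% (glmTreat) to 23.4% (at least 10 counts). In the interaction, 4 genes were called with no filter on low counts, and 0 to 4 when each library was left out. The interaction of MT-ATP8 turned positive without TRiC input replicate 2 (0.015) or PFD pulldown replicate 1 (0.35), over a range of -0.56 to 0.35. The mean share of the 6 genes became 0.480% in TRiC inputs without the 10 most counted genes, and 0.326% (protein-coding genes only) and 0.342% (without those 10) in PFD inputs. The log2 ratio of the 6 genes to complex I genes, -1.22 as the mean of both lines, was -1.17 as a mean of log2 counts, -1.09 without MT-ND5 and -1.19 without MT-ND6, alternatives chosen after seeing the data. The cause of these shifts was not tested.

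Counts over all genes moved more. In the TRiC line 1550 rose and 1894 fell, but 164 and 64 with glmTreat, 16 and 15 with all 8 libraries, and 797 to 1994 and 748 to 2704 with a library left out. In the PFD line 7 and 27 became 256 and 295 with DESeq2, 14 and 43 with cyclic loess, 59 and 93 with no filter, 44 and 90 with the replicate block, 27 and 56 with all 8 libraries, and 28 to 1081 and 43 to 1353 with a library left out, most without PFD pulldown replicate 2. Between inputs 3685 and 2898 became 2046 and 1183 with glmTreat, 1986 and 1872 with all 8 libraries, and 1835 to 6382 and 1791 to 4702 with a library left out. The interaction called 4 and 3 genes, 481 and 536 with DESeq2, 2 and 2 with cyclic loess, 213 and 298 with no filter, 9 and 5 with at least 10 counts, 0 and 0 with the replicate block, and 0 to 2489 and 0 to 1442 with a library left out. In the nuclear lists, expression and assembly factors lower in the TRiC pulldown went from 8 to 3 with library totals and 5 with DESeq2. Complex V subunits went from 7 to 11 with the replicate block. Over all genes 10.6% were called lower in the main fit, 7.05% with library totals, 9.02% with DESeq2 and 14.8% with the replicate block. Where a library was left out, the lone library of its group was assumed to vary like the others.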
